A study of Homo sapiens with 8 samples.

Results

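Chemokines are small secreted proteins that direct the movement of leukocytes and other cells. The genes described here are 10 chemokine genes, CCL2, CCL5, CCL20, CXCL1, CXCL2, CXCL3, CXCL8, CXCL10, CXCL11 and CXCL12, found by their symbols among the 19479 genes listed for AC16 cells. AC16 is a proliferating human line derived from a fusion of primary ventricular heart muscle cells and SV40-transformed fibroblasts. Its cells had been kept for at least 3 passages in medium containing glucose at 5 mM or, in the other culture, at 25 mM. Controls stayed at 5 mM (the 5 mM group) or at 25 mM (the 25 mM group), and parallel cultures were taken to 50 mM for 24 h by adding 45 mM (5 to 50 mM) or 25 mM (25 to 50 mM) glucose. All 4 groups share the cell line, the serum-containing medium and the sequencing of total RNA, and none is an osmotic control. Each group has 2 libraries. The submitters speak of a technical replicate for each sample and do not say whether the libraries of a group come from separate cultures, so the p-values below measure the spread between these libraries, which may be technical. The maintenance glucose and the particular cultures kept at it cannot be told apart.

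Chemokines act through G-protein-coupled receptors and are held on cell surfaces and matrix by glycosaminoglycans. CXCL1, CXCL2, CXCL3 and CXCL8 attract neutrophils through CXCR2, and CXCL8 also acts through CXCR1. CXCL10 and CXCL11 attract activated T cells through CXCR3, and CCL2 attracts monocytes through CCR2. CCL5 attracts T cells and monocytes, CCL20 is the ligand of CCR6, and CXCL12 is the ligand of CXCR4 and ACKR3. Most are transcribed in response to inflammatory signals, through NF-kB after interleukin 1 or tumour necrosis factor and through interferon regulatory factors after interferon, whereas CXCL12 is made constitutively by stromal cells. In the heart, CCL2 and CXCL8 are known as early signals after injury, and CXCL12 as a signal for the homing of progenitor cells.

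Values are RPKM, which divides the reads of a gene by its length and by the depth of the library, from libraries of 21538898 to 27372851 reads, and 3 reads on a gene of 1 kb correspond to 0.110 to 0.139 RPKM. Of 16 cardiomyocyte markers 13 stayed under 1 RPKM in all 8 libraries, TNNT2 (cardiac troponin T) at means of 0 to 0.0614 RPKM in the 4 groups, whereas all 12 fibroblast markers reached 1 RPKM. The cardiomyocyte list summed to 2.84 to 4.85, 2.77 to 2.78, 7.77 to 8.51 and 8.69 to 9.44 RPKM per library at 25, 25 to 50, 5 and 5 to 50 mM. NPPA and GATA4, which reached 1 RPKM along with ACTN2, were called lower at 25 mM than at 5 mM. NPPA had 2.36 against 4.04 RPKM (log2 change -0.60) and GATA4 0.417 against 3.04 (-1.52). GATA4 was under 1 RPKM in every library kept at 25 mM, so it could be tested only through the 5 mM groups. The labelled cell type is thus not matched by most of its markers. The fibroblast markers summed to 6446 to 7223 RPKM over the 8 libraries, but at 25 mM against 5 mM 6 of the 12 were called higher (such as COL1A1, log2 change 0.53) and 4 lower (such as FAP, -1.06, and VIM, -0.30, which carries most of the sum). Among 13 leukocyte markers 4 reached 1 RPKM, and 3 of these, CD68, CSF1R and FCER1G, were called lower at 25 mM than at 5 mM. FCER1G had 0.356 against 3.62 RPKM (log2 change -1.75) and CSF1R 0.407 against 1.24 (-0.67). Both were under 1 RPKM in every library kept at 25 mM, so they could be tested only through the 5 mM groups. CD14, with 1.30 against 2.17 RPKM, was not called. PTPRC, the gene of the pan-leukocyte antigen CD45, had means of 0.105 to 0.199 RPKM, and the lymphocyte markers CD3D, CD3E, MS4A1 and NKG7 were at 0 in all 8 libraries. CD68, a lysosomal protein of macrophages that fibroblasts also make, had means of 91.5 at 25 mM and 246 at 5 mM in RPKM, and the leukocyte list summed to 93.7 to 93.8, 87.3 to 88.5, 248 to 259 and 220 to 233 RPKM per library at 25, 25 to 50, 5 and 5 to 50 mM. The 8 endothelial markers summed to between 3.93 and 6.19 RPKM. Most of this was TEK, the one above 1 RPKM, with 3.77 at 25 mM and 2.94 at 5 mM, whereas PECAM1 had means of 0.0168 at 25 mM and 0.738 at 5 mM and KDR 0.137 and 0.927. The part of these markers in the chemokine levels was not tested. In these bulk samples, fewer cells making a chemokine and less of its RNA per cell cannot be told apart.

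The proximal promoters of the members are shown first, as the letters that precede the start of each gene whose level is compared below. RefSeq sequences (GRCh38.p14), running from 250 bases before to 50 bases after the annotated start, were matched for 8 of the 10 members. The stretches below are written 5′ to 3′ on the strand of the gene and end at the base before the start (position -1). Capitals mark, on either strand, the 9 letters GGAATTTCC (an NF-kB type site), the kB consensus, the pair GAAA, any 2 letters, GAAA, bound by interferon regulatory factors, the AP-1 letters TGANTCA, and, on the strand of the gene, the TATA box letters TATAAA. The neutrophil-attracting members CXCL1 (chr4:73869273-73869392, plus strand), CXCL2 (chr4:74099196-74099315, minus strand), CXCL3 (chr4:74038690-74038809, minus strand) and CXCL8 (chr4:73740429-73740568, plus strand) read:
CXCL1: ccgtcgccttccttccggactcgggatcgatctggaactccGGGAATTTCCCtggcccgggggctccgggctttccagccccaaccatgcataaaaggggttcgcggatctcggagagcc
CXCL2: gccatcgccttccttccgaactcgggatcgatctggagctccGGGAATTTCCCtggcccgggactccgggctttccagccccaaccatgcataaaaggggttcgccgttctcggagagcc
CXCL3: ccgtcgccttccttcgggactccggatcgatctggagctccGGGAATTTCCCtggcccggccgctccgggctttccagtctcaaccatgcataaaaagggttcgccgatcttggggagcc
CXCL8: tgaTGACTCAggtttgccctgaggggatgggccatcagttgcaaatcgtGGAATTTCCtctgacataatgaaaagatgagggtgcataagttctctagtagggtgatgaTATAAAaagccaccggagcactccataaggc

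The CXCR3 ligands CXCL10 (chr4:76023498-76023747, minus strand) and CXCL11 (chr4:76036071-76036190, minus strand) and, for contrast, CXCL12 (chr10:44385098-44385197, minus strand) read:
CXCL10: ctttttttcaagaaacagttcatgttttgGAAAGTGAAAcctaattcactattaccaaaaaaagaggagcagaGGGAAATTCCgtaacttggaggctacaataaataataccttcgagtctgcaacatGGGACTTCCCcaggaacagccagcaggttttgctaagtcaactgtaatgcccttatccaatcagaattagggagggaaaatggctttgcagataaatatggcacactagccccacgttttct
CXCL11: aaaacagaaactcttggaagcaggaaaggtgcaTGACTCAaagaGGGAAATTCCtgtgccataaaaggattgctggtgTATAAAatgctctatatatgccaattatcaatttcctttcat
CXCL12: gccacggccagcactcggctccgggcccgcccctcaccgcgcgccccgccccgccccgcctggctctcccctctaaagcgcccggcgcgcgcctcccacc

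The 9 letters GGAATTTCC were present in 6 of the 8 members matched, against 0.461% of 35116 promoters of the same length. This motif was picked after the sequences had been seen. It lay at -78 to -70 in CXCL1, -77 to -69 in CXCL2, -78 to -70 in CXCL3 and -91 to -83 in CXCL8, and on the opposite strand at -176 to -168 in CXCL10 and -75 to -67 in CXCL11. Where the kB consensus was searched, which overlaps these 9 letters, it was found in CXCL1, CXCL2, CXCL3, CXCL10, CXCL11 and, at -79 to -70, in CCL20, against 11.3% of all promoters. CXCL10 held a further kB match at -122 to -113, and it was the member with the pair of GAAA, at -221 to -212, which 3.57% of all promoters hold. AP-1 letters stood at -137 to -131 in CXCL8 and at -87 to -81 in CXCL11, against 7.71% of all promoters, and TATAAA in CCL20, CXCL8 and CXCL11, against 7.33%. None of these letters was in the window of CXCL12, whose GC content was 77.0% against 38.7% to 66.3% in the other 7 and a median of 58.7% over all promoters. The windows of CXCL1 and CXCL3 were 82.5% identical, those of CXCL2 and CXCL3 73.8% and those of CXCL1 and CXCL2 71.9%.

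**Figure D1:**
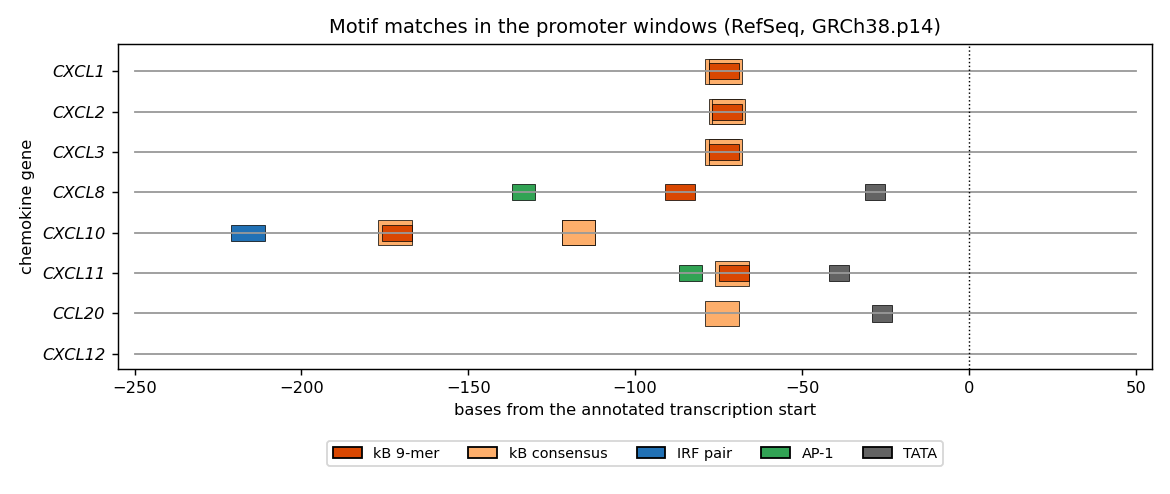
Positions of the motif matches in the promoter windows of the 8 members, in bases from the annotated start (x axis), with 1 row per gene and 1 colour per motif; taller boxes are the kB consensus. The kB type matches of CXCL1, CXCL2, CXCL3, CXCL8, CXCL11 and CCL20 lie between -91 and -67, those of CXCL10 farther from the start, and CXCL12 has none.

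The members lie on chromosomes 2, 4, 10 and 17 (GRCh38.p14, whole genes). CXCL8 (Entrez 3576, chromosome 4, 73740569 to 73743716), CXCL1 (2919, chromosome 4, 73869393 to 73871308), CXCL3 (2921, chromosome 4, 74036589 to 74038689) and CXCL2 (2920, chromosome 4, 74097040 to 74099195) form the neutrophil chemokine cluster. CXCL10 (3627, 76021118 to 76023497) and CXCL11 (6373, 76033682 to 76036070) are neighbours on the same chromosome. CCL2 (6347, 34255285 to 34257203) and CCL5 (6352, 35871491 to 35880360) are on chromosome 17, CCL20 (6364, 227813842 to 227817556) on chromosome 2 and CXCL12 (6387, 44370165 to 44385097) on chromosome 10. The gene lengths recovered from the RPKM values were close to coding lengths, equal to those of the GENCODE annotation for 37.7% of 13330 genes and within 5% for 66.1%. Among the members 8 were within 5%. CCL5, with 930 against 465 coding bases, and CXCL11, with 325 against 285, were longer, which sets their RPKM low against the other members without touching their read ratios. Stretches of 50 coding bases shared with another gene made up 5.09% of CXCL1, 22.5% of CXCL2 and 19.6% of CXCL3, all shared among these 3 genes, so how reads fell among them is uncertain. The other 7 members shared none.

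In cells kept at 25 mM glucose the 9 chemokines that could be tested were lower than in cells kept at 5 mM, from 1.84 times in CXCL12 to 80.9 times in CXCL10 by reads. CCL20 had 1 read at 25 mM and 0 at 5 mM. Summed over the 10 members, RPKM per library was 133 to 158 at 25 mM, 161 to 162 at 25 to 50 mM, 375 to 397 at 5 mM and 506 to 540 at 5 to 50 mM. CXCL12 made up the largest share of each sum. After 24 h at 50 mM, CCL2 and CXCL10 passed the test for a rise in cells kept at 5 mM. These calls depended on settings and on single libraries. None of the 5 members tested passed in cells kept at 25 mM. CCL5, CCL20, CXCL3, CXCL10 and CXCL11 were too low to be tested there. The difference between the rises was called in no member. CXCL1 and CXCL2 passed the test in neither rise, and CXCL3 did not pass it from 5 mM. The test throughout was limma on log2(RPKM + 1), two-sided, p-values being adjusted by the Benjamini-Hochberg method across every gene tested and a threshold of 0.05; a gene was tested when 2 or more libraries of the fit had 1 RPKM or more. Log2 changes below are on that scale, which understates changes of low genes, and are given with their standard error (SE).

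**Figure D2:**
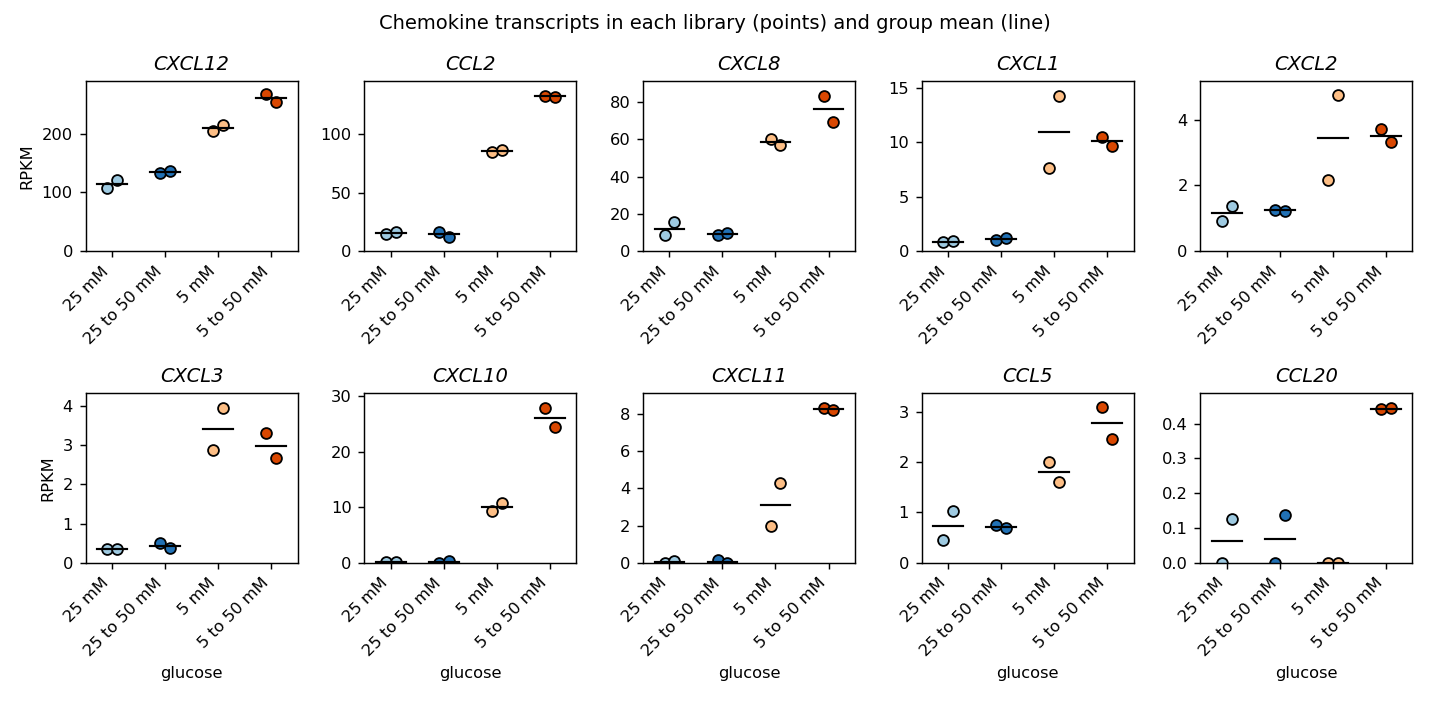
RPKM of each member (y axes, each on its own linear scale from 0) in each of the 8 libraries (points), with a line at the mean of each glucose group (x axes). In every panel but that of CCL20 both points of the 5 mM group lie above both points of the 25 mM group.

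Among the neutrophil-attracting members, CXCL8 had 8.76 and 15.4 RPKM in the 25 mM libraries, 8.43 and 9.61 at 25 to 50 mM, 60.2 and 56.8 at 5 mM, and 83.1 and 69.1 at 5 to 50 mM. All 4 libraries of cells kept at 5 mM lay above all 4 of cells kept at 25 mM. At 25 mM against 5 mM the log2 change of CXCL8 was -2.23 ± 0.22 (SE, n = 2 libraries per group, limma adjusted p = 0.000179), from 12.1 ± 4.68 to 58.5 ± 2.36 RPKM (mean ± SD) going from 25 mM to 5 mM. The rise to 50 mM gave 0.37 ± 0.10 from 5 mM (limma adjusted p = 0.309) and -0.34 ± 0.23 from 25 mM (limma adjusted p = 0.636). The libraries did not overlap in the first of these rises and did in the other, where replicate 3 of the 25 mM group stood above its partner. Without that replicate the log2 change from 25 mM was 0.04.

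CXCL1 had 0.810 and 0.909 RPKM at 25 mM, 1.00 and 1.24 at 25 to 50 mM, 7.59 and 14.2 at 5 mM, and 10.4 and 9.70 at 5 to 50 mM. The 5 mM replicates lay on either side of the 5 to 50 mM libraries, and the same was true of CXCL2. CXCL2 had 0.926 and 1.36 RPKM at 25 mM, 1.26 and 1.24 at 25 to 50 mM, 2.15 and 4.74 at 5 mM, and 3.70 and 3.32 at 5 to 50 mM. CXCL3 had 0.347 and 0.341 RPKM at 25 mM, 0.502 and 0.371 at 25 to 50 mM, 2.87 and 3.95 at 5 mM, and 3.30 and 2.66 at 5 to 50 mM. In these 3 genes replicate 3 of the 5 mM group was the highest of the 8 libraries, with 126, 42 and 35 reads against 53, 15 and 20 in replicate 1. At 25 mM against 5 mM the log2 change was -2.62 ± 0.23 for CXCL1 (limma adjusted p = 0.000117, n = 2 per group), -0.99 ± 0.25 for CXCL2 (0.0164) and -1.70 ± 0.14 for CXCL3 (9.20e-05). The rise from 5 mM gave -0.05 ± 0.26 for CXCL1 (95% interval -0.71 to 0.61), 0.08 ± 0.28 for CXCL2 (-0.62 to 0.79) and -0.14 ± 0.16 for CXCL3 (-0.55 to 0.27), with limma adjusted p of 0.973, 0.950 and 0.837. These intervals leave room for changes of either sign. From 25 mM, the log2 change was 0.19 ± 0.13 for CXCL1 (adjusted p = 0.636) and 0.07 ± 0.14 for CXCL2 (adjusted p = 0.874), while CXCL3, with 3 or 4 reads per library there, was too low to be tested.

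The CXCR3 ligands were close to undetected in cells kept at 25 mM. CXCL10 was covered by 1 and 1 reads at 25 mM, 0 and 2 at 25 to 50 mM, 60 and 87 at 5 mM, and 193 and 169 at 5 to 50 mM. In RPKM this was 0.126 and 0.124, then 0 and 0.270, then 9.38 and 10.7, then 27.8 and 24.5. CXCL11 was covered by 0 and 1 reads, 1 and 0 reads, 14 and 38 reads, and 63 and 62 reads in the same order of groups, or 0 and 0.113, 0.125 and 0, 2.00 and 4.27, and 8.30 and 8.21 RPKM. Both genes were thus at or under 3 reads in each of the 4 libraries of cells kept at 25 mM, where no effect of the rise was detectable at this depth. In reads per library total, CXCL10 was 80.9 times higher at 5 mM than at 25 mM (95% exact interval 22.0 to 674, 147 against 2 reads) and CXCL11 57.2 times (9.83 to 2304, 52 against 1 read). After the rise, the ratios of 5 to 50 mM over 25 to 50 mM were 193 (52.9 to 1596) for CXCL10 and 133 (23.4 to 5295) for CXCL11. These intervals cover counting error alone.

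On the log2(RPKM + 1) scale, 25 mM against 5 mM gave -3.29 ± 0.13 for CXCL10 (limma adjusted p = 3.62e-06, n = 2 per group) and -1.91 ± 0.23 for CXCL11 (limma adjusted p = 0.000567). With a pseudocount of 0.1 RPKM these became -5.49 and -4.37, since the 25 mM level is close to 0. The rise from 5 mM to 50 mM raised CXCL10 by 1.30 ± 0.10 on the log2 scale (limma adjusted p = 0.0269), a ratio of 2.59 in reads (2.13 to 3.15). CXCL11 had a log2 change close to it, 1.22 ± 0.26, and a read ratio of 2.52 (1.81 to 3.56), but did not pass (limma adjusted p = 0.227). Its 5 mM replicates had 14 and 38 reads. Without replicate 1 of that group the log2 change was 0.81 and the call was made (limma adjusted p = 0.0153), in a fit where the spread comes from the 5 to 50 mM libraries alone and 6.82% of all genes tested were called. Neither ligand's 5 mM and 5 to 50 mM libraries overlapped.

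Of the CC chemokines, CCL2 was the most abundant, with 14.6 and 16.7 RPKM at 25 mM, 16.7 and 12.3 at 25 to 50 mM, 84.7 and 86.6 at 5 mM, and 133 and 132 at 5 to 50 mM. The 25 mM and 25 to 50 mM libraries overlapped, and the other groups were apart from each other and from these. At 25 mM against 5 mM the log2 change of CCL2 was -2.38 ± 0.13 (limma adjusted p = 1.12e-05, n = 2 per group). CCL2 rose by 0.62 ± 0.05 from 5 mM to 50 mM (limma adjusted p = 0.0269), 1.55 times in reads (1.44 to 1.66). From 25 mM its log2 change was -0.12 ± 0.14 (95% interval -0.47 to 0.23, limma adjusted p = 0.798).

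CCL5 had 0.443 and 1.03 RPKM at 25 mM, 0.744 and 0.689 at 25 to 50 mM, 2.00 and 1.61 at 5 mM, and 3.09 and 2.45 at 5 to 50 mM. Its groups kept at 5 mM did not overlap with each other or with those kept at 25 mM. The log2 change was -0.71 ± 0.17 at 25 mM against 5 mM (limma adjusted p = 0.0143, n = 2 per group) and 0.43 ± 0.14 for the rise from 5 mM (limma adjusted p = 0.393). From 25 mM CCL5 missed the filter, against which its long recovered gene length sets it low, and was not tested. Its reads were 33 at 25 to 50 mM against 37 at 25 mM (ratio 0.969, 95% exact interval 0.587 to 1.59, counting error alone). The call at 25 mM against 5 mM was lost without replicate 1 of the 25 mM group (-0.46, limma adjusted p = 0.0783) and without replicate 1 of the 5 mM group. CCL20 had 3 reads in each 5 to 50 mM library, 0 in both 5 mM libraries and 0 or 1 in the libraries of cells kept at 25 mM, and was too low to be tested. In RPKM the 5 to 50 mM libraries had 0.442 and 0.444. No library of any group was above the floor of 3 reads, so no fold is given.

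CXCL12 was the most abundant member in all 8 libraries, with 107 and 122 RPKM at 25 mM, 132 and 137 at 25 to 50 mM, 204 and 214 at 5 mM, and 267 and 254 at 5 to 50 mM. The 4 groups stood apart in this order without overlap. The log2 change was -0.87 ± 0.07 at 25 mM against 5 mM (limma adjusted p = 6.03e-05, n = 2 per group). It was 0.32 ± 0.06 for the rise from 5 mM (limma adjusted p = 0.162) and 0.24 ± 0.07 for the rise from 25 mM (limma adjusted p = 0.502), neither past the threshold. The difference between these rises was 0.08 ± 0.10 (95% interval -0.14 to 0.30). CXCL12 was the member with the smallest unadjusted p from 25 mM, 0.0130.

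**Figure D3:**
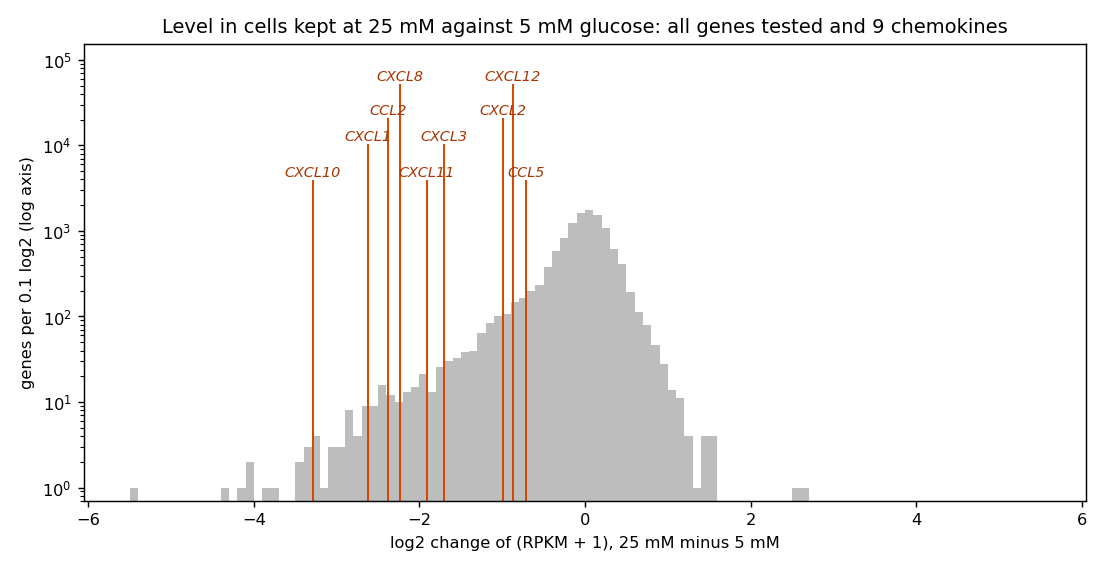
Histogram of the log2 change of (RPKM + 1) at 25 mM minus 5 mM over the 11941 genes tested (grey, number of genes per bin of 0.1 on a log axis), with the 9 members tested as labelled orange lines, whose heights carry no meaning. The members lie left of 0, from -3.29 in CXCL10 to -0.71 in CCL5, while the median of all genes is -0.004.

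At 25 mM against 5 mM all 9 members tested were called lower at 25 mM. Of the 11941 genes tested 22.1% were called lower and 17% higher, 39.1% in all. The members and the gene lists below had been chosen with earlier results of these data known. Shares set against all genes therefore do not test them as sets. In 9 of the 10 members (all but CCL20) both 25 mM libraries lay below both 5 mM libraries and in none above, against 35.3% and 32.4% of the genes tested. CXCL3, CXCL10 and CXCL11 had no library of cells kept at 25 mM at 1 RPKM and CCL5 had 1, so these entered the test through the groups in which they are high, and their calls add nothing to the count. The other 5, CCL2, CXCL1, CXCL2, CXCL8 and CXCL12, had at least 2 libraries at 1 RPKM among those kept at 25 mM and were called lower too. Without replicate 1 of the 25 mM group 7 of the 9 calls remained, CCL5 and CXCL2 being lost, and 8 without replicate 1 of the 5 mM group, where CCL5 was lost. At 50 mM the order was the same, with the 25 to 50 mM libraries below the 5 to 50 mM libraries in all 10 members, 9 of them tested, against 39.9% of the genes tested (34.8% above). This second comparison was described and not tested. CCL5, CXCL3, CXCL10 and CXCL11, high in the groups through which they entered, add nothing to either count of libraries lying apart. CCL20, with 3 reads or fewer in every library, adds nothing at 50 mM. CCL2, CXCL1, CXCL2, CXCL8 and CXCL12 lay below in both comparisons.

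The rise from 5 mM was called in 2 of the 9 members tested, both higher, where 0.312% of 11849 genes were called higher and 0.0169% lower. In 6 of the 9 members tested (CCL2, CCL5, CXCL8, CXCL10, CXCL11 and CXCL12) both 5 to 50 mM libraries lay above both 5 mM libraries, against 16.6% of the genes tested, and in none did they lie below, against 26%. The untested CCL20 had 3 and 3 reads against 0 and 0. The median log2 change of the 9 was 0.37, and that of all genes -0.03. The calls depended on single libraries and on settings. With no filter or without the trend no gene at all was called, and in a joint fit of all 8 libraries CXCL10 was the only member called. The calls of CCL2 and CXCL10 were lost without either 5 to 50 mM library, in fits that called almost no gene. Without either 5 mM library CXCL11 and CXCL12 were called too, in fits that called many more genes. Without replicate 1 of the 5 mM group CXCL1 was called lower. When single libraries were left out, the log2 change ran from 0.61 to 0.64 for CCL2 and from 1.21 to 1.39 for CXCL10. For CXCL1 it ran from -0.46 to 0.36. With 1 library left, a group is assumed to vary like the other group.

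The rise from 25 mM was called in 0 of the 5 members tested by limma, where 0.00876% of 11422 genes were called. At an unadjusted p under 0.05, 1 member (CXCL12) was higher and 0 were lower, and voom on the recovered reads also called 0. Both 25 to 50 mM libraries lay above both 25 mM libraries in CXCL1 and CXCL12, 2 of the 5 members tested. Over the genes tested this was so in 14.4%, and 29.1% lay below. CXCL1, at 0.810 and 0.909 RPKM at 25 mM, entered this test through the 25 to 50 mM group, in which it is high. Its 8 and 10 reads there, against 7 and 8 at 25 mM, add nothing to this count. The difference between the rises, the change from 5 mM minus that from 25 mM, was called by limma in 0 of the 9 members, where 0.0251% of 11941 genes were called (0.0167% higher, 0.00837% lower). It was highest in CXCL10 (1.30 ± 0.19, adjusted p = 0.228), CXCL11 (1.21 ± 0.33, 0.556) and CCL2 (0.74 ± 0.18, 0.459). CXCL10 and CXCL11 had 2 reads or fewer in each library kept at 25 mM and entered this fit through the 5 mM groups. Their difference therefore repeats their rise from 5 mM (1.30 and 1.22) and adds nothing to it. At p under 0.05 before adjustment were CXCL10, CXCL11 and CCL2, and 0 members were called with voom. The rises of CCL2 and CXCL10 from 5 mM are therefore not shown to differ from those in cells kept at 25 mM.

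**Figure D4:**
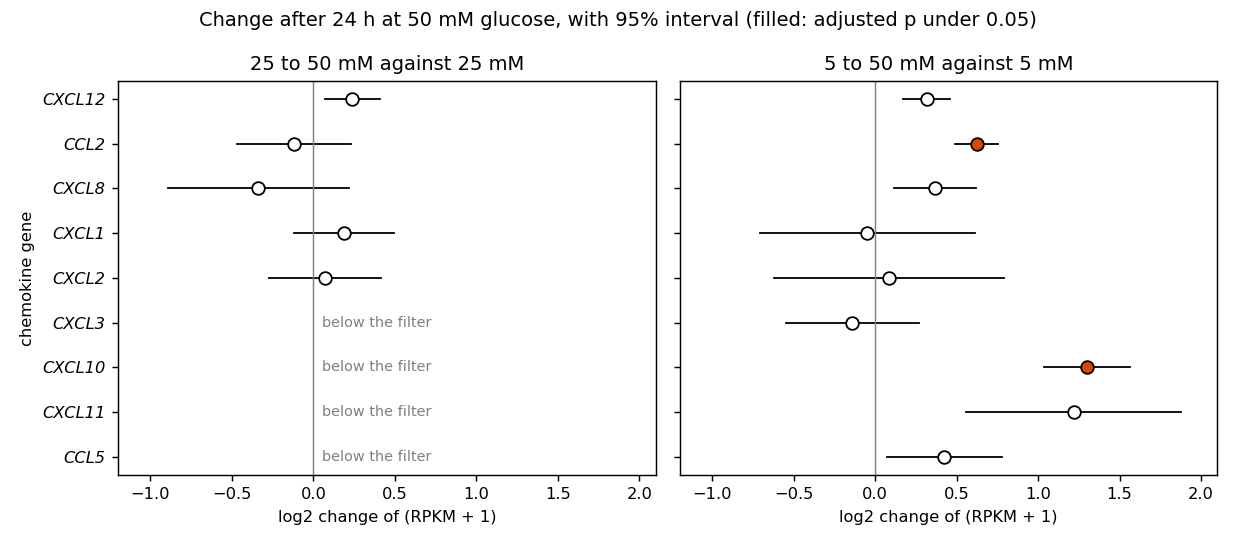
Log2 change of each member on the rise to 50 mM, from 5 mM and from 25 mM, with 95% intervals from limma on the 4 libraries of each rise; filled points passed the threshold, and 4 members below the filter from 25 mM have no point. CXCL10 (1.30) and CCL2 (0.62) from 5 mM were called, and no member from 25 mM.

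Beyond the 10 members, the tables list 38 other chemokine ligands, of which 24 were at 0 in all 8 libraries and 31 under 1 RPKM. CXCL5, a further ligand of CXCR2, had 0.433 ± 0.310 RPKM at 25 mM and 4.99 ± 0.583 at 5 mM (log2 change -2.08, limma adjusted p = 5.02e-05). CCL26, an eosinophil-attracting ligand of CCR3, had 4.62 ± 1.51 at 25 mM and 14.9 ± 0.123 at 5 mM (-1.53, limma adjusted p = 0.000561). These were the ones called among the 3 tested at 25 mM against 5 mM, and CXCL5, under 1 RPKM in every library kept at 25 mM, entered the test through the 5 mM groups, in which it is high. CXCL16, the membrane-bound ligand of CXCR6, did not pass (0.09, limma adjusted p = 0.644). In neither rise was any of these ligands called, at 0 of 3 from 5 mM and 0 of 2 from 25 mM (limma), with 1 at an unadjusted p under 0.05 from 5 mM and 0 from 25 mM. CXCL9, the remaining CXCR3 ligand, was at 0 in all 8 libraries.

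The receptors were low. Of 23 listed, 19 stayed under 1 RPKM in all 8 libraries and 9 were at 0 in all of them, among these CXCR1, CXCR2 and CXCR3. CXCR4 had means of 0 to 0.0319 RPKM in the 4 groups, and ACKR3, the other CXCL12 receptor, 0.664 at 25 mM, 0.611 at 25 to 50 mM, 0.887 at 5 mM and 1.38 at 5 to 50 mM. CCR10, the receptor of skin-homing T cells, had means of 0.632 to 1.26 RPKM and CCR7, the lymph node homing receptor, 0.373 to 1.00. CCRL2, an atypical receptor that binds chemerin, was the receptor called at 25 mM against 5 mM among 4 tested, with 0.0697 against 0.815 RPKM (log2 change -0.75, limma adjusted p = 0.0156). With 4 and 5 reads at 25 mM and 25 to 50 mM, it too entered the test through the groups in which it is high. CCR7, CCR10 and ACKR3 likewise needed the libraries kept at 5 mM to pass the filter. Of all genes tested 22.1% were called lower, so 1 of 4 receptors is near the background. From 5 mM 0 of 4 receptors were called by limma, with 1 at an unadjusted p under 0.05, and from 25 mM none was high enough to be tested.

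Genes of the NF-kB route were mixed at 25 mM against 5 mM, with 7 of 29 tested lower at 25 mM, 2 higher and 20 not past the test, and a median log2 change of -0.13. Over all genes tested 22.1% were lower and 17% higher, so the share of the route called lower is near the background. IL1B, the inducing cytokine interleukin 1 beta, had means of 9.55 RPKM at 25 mM and 144 at 5 mM (log2 change -3.79, limma adjusted p = 6.24e-07). IL1R1, its receptor, had 16.6 and 40.5, and TNFAIP3, a feedback inhibitor and target of the route, 5.37 and 16.1. IL6, a target, had 7.73 and 48.3, and the other genes called lower were MYD88, NFKB2 and RELB. MAP3K7 (log2 change 0.45) and CHUK (0.21), kinases of the route, were higher at 25 mM. RELA, the main activating subunit, had 79.5 and 69.8 RPKM (limma adjusted p = 0.0727), and NFKBIA, the inhibitor and a rapid target, 32.1 and 33.5 (limma adjusted p = 0.682). On the rise from 5 mM IL6 was the gene called, with 48.3 ± 3.20 against 85.9 ± 7.49 RPKM (log2 change 0.82, limma adjusted p = 0.0451), while IL1B stood at 144 and 140 RPKM. From 25 mM 0 of 29 were called by limma, with 1 lower at an unadjusted p under 0.05.

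Genes of the interferon route were lower at 25 mM in 12 of 21 tested (among them JAK2, STAT2, IRF1, IRF2, IRF7, IRF9, DDX58, IFIH1, MAVS, TLR3 and USP18), with 0 higher and a median of -0.35, against 22.1% and 17% of all genes tested. TLR3 entered the test through the 5 mM groups, in which it is high, and without it 11 of 20 were lower. IRF1, an interferon-induced transcription factor, had means of 15.4 RPKM at 25 mM and 30.8 at 5 mM (log2 change -0.95, limma adjusted p = 8.44e-05). DDX58, the RNA sensor RIG-I, had 9.64 and 59.8, and USP18, a feedback inhibitor of interferon receptors, 2.65 and 28.8. On the rise from 5 mM DDX58 went from 59.8 ± 1.11 to 100.5 ± 3.70 RPKM (log2 change 0.74, limma adjusted p = 0.0269) and USP18 from 28.8 ± 0.821 to 50.1 ± 0.991 (0.78, 0.0269), the 2 called of 21. From 25 mM 0 of 20 were called by limma, with 3 lower at an unadjusted p under 0.05. IFNB1, interferon beta itself, was covered by 0 reads at 25 mM, 1 at 25 to 50 mM, 8 at 5 mM and 25 at 5 to 50 mM, summed over the libraries of a group, and was not tested.

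**Figure D5:**
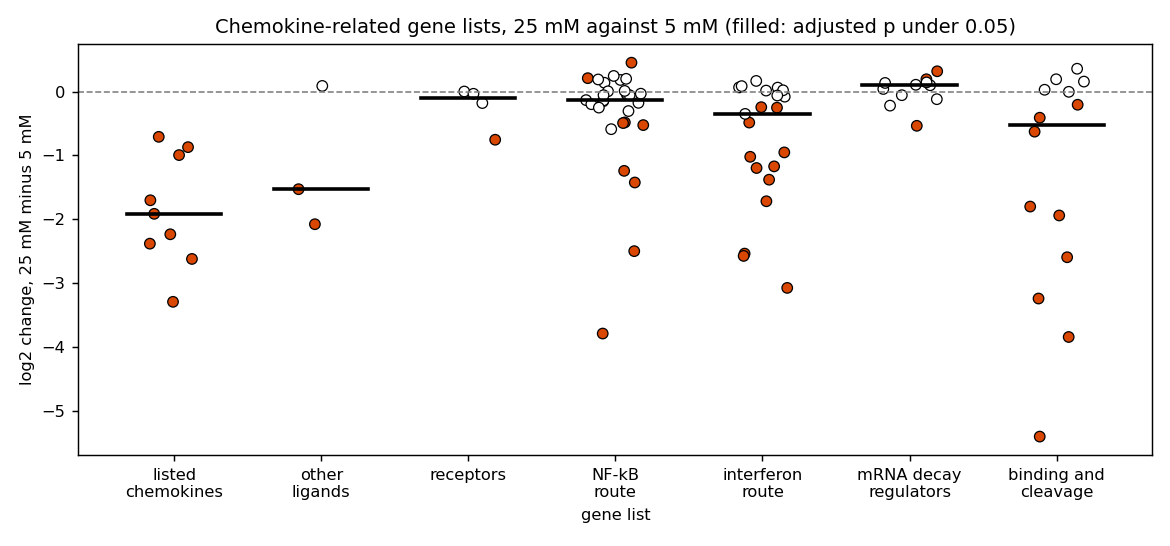
Log2 change at 25 mM minus 5 mM for the tested genes of each list (points, filled where called, shifted sideways at random to separate them), with a bar at the median of the list and a dashed line at the median of all genes tested. Genes that entered the test through the 5 mM groups alone are included. The median is -1.91 for the members, -0.35 for the interferon route and -0.13 for the NF-kB route.

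Other lists covered genes that act on chemokines after transcription. Of 11 regulators of the decay of inflammatory mRNAs, most of which bind AU-rich elements such as those in the transcripts of CXCL8, CXCL1 and CXCL2, 1 was lower at 25 mM than at 5 mM (ZC3H12A, the nuclease Regnase-1, log2 change -0.54, limma adjusted p = 0.0119). HNRNPD (0.32) and ELAVL1 (0.19), RNA-binding proteins, were higher, and 8 did not pass. Set beside these counts, 22.1% of all genes tested were lower and 17% higher. Of 14 tested genes for binding and cleaving chemokines, 9 were lower at 25 mM and 0 higher, against 22.1% and 17% of all genes tested. MMP1, MMP3 and TNFAIP6, under 1 RPKM in every library kept at 25 mM, entered through the 5 mM groups, and without them 6 of 11 were lower. DPP4, the peptidase that clips the amino end of CXCL10, CXCL11 and CXCL12, had 3.43 ± 0.743 RPKM at 25 mM and 40.5 ± 0.00169 at 5 mM (log2 change -3.24, limma adjusted p = 2.28e-06). TNFAIP6, which binds CXCL8, had 0.913 and 10.6. The metalloproteinases MMP1, MMP2, MMP3 and MMP14 were lower by -5.40, -1.94, -3.84 and -1.80 on the log2 scale, and the remaining called genes were the proteoglycans SDC1, SDC2 and SDC3. MMP3 was the gene of this list called on the rise from 5 mM, with 21.7 against 35.3 RPKM (limma adjusted p = 0.0411).

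The genes whose profile over the 8 libraries was most like that of a member were ranked by the root mean square difference of their centred log2(RPKM + 1) values, among genes whose mean reached 5 RPKM. For CXCL10 these were MMP3 (0.274), USP18 and IFIT2. For CCL2 they were PODXL (0.110), HIST1H2BD and IL6, for CXCL8 GMPR (0.140), PARP14 and SAMD9L, and for CXCL11 AKR1B1 (0.211), HIST1H2AC and HIST1H2BD. For CXCL1 they were FZD8 (0.173), SOX9 and OAF, for CXCL2 TNFSF9 (0.101), FZD1 and TMEM132A, and for CXCL3 DUSP4 (0.0908), C16orf74 and FBXO32. For CCL5 they were ITGA1 (0.107), TRIM38 and IFIT5, and for CXCL12 APLP2 (0.0639), S1PR3 and TGFBI. These rankings describe the same 8 libraries that enter the comparisons above.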

How the data were processed

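RNA of 8 AC16 libraries, 2 in each of 4 glucose groups taken from the labels, was analysed. The authors deposited RPKM values per gene in 1 table for each maintenance glucose. The submitters' processing notes name STAR and hg38. The counting tool and annotation are not given in the sources used here, and the deposited tables say nothing on strand. Tables were joined by Entrez number. Whole reads and gene lengths were recovered from the RPKM values (100% whole within 0.01), and the lengths were equal in both tables. They served for read numbers and voom. Genes that reached 1 RPKM in 2 or more fitted libraries were tested with limma 3.58.1 (R 4.3.3, mean-variance trend) on log2(RPKM + 1). The rises used their own 4 libraries, the difference between the rises and 25 mM against 5 mM all 8. Intervals of read ratios are exact conditional binomial ones (95%). Chi-square per degree of freedom between the libraries of a group was 2.60 to 16.6, so none were copies. Scripts were tested on simulated data. The members and the gene lists were chosen with earlier results of these data known. Named were all members, from each list the called genes or up to 4 of the highest level, the 3 genes most like each member, and some genes for their known role, picked after their values were seen. Alternatives were a pseudocount of 0.1, no filter, median centring, no trend, robust estimation, voom, other sets of libraries, a replicate block, and leaving out each library. Some genes are not reported here.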

Additional observations from a re-analysis of the deposited data

How the results depend on the processing

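No paired analysis was possible within the 4 libraries of a rise, because its groups share 1 replicate number. With the replicate number as a block over all 8 libraries (2 residual degrees of freedom) 0 members were called from 25 mM, 0 from 5 mM, 0 for the difference and 9 at 25 mM against 5 mM. In that block CXCL2 from 25 mM turned to -0.00818 and CXCL1 from 5 mM to 0.11. Over all genes the block called 0, 0 and 0 for the rises and their difference. Deviations of same-numbered libraries correlated at 0.30 between the 25 mM and 5 mM groups and at -0.76 to -0.23 between the others. With 2 libraries per group each pair of groups gives 1 value apart from its sign. These correlations therefore cannot decide whether the numbers pair the libraries.

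Of the 2 members called from 5 mM, 0 were called with no filter (adjusted p = 0.114 for both CCL2 and CXCL10), 0 without trend and 1, CXCL10, in the joint fit of all 8 libraries (CCL2 adjusted p = 0.0735). The causes were not tested. Leaving out single libraries gave 0 to 5. Members called at 25 mM against 5 mM stayed 9 under every setting but leaving out single libraries (7 to 9), and from 25 mM and for the difference 0 under every setting run. The difference of CXCL2 turned to -0.00633 with a pseudocount of 0.1, -0.0295 with median centring and -0.0645 with voom. Leaving out single libraries changed the sign of CCL2 (-0.324 to 0.0891), CXCL2 (-0.0737 to 0.222) and CXCL8 (-0.711 to 0.0362) from 25 mM, of CXCL1 (-0.46 to 0.36), CXCL2 (-0.35 to 0.52) and CXCL3 (-0.318 to 0.0375) from 5 mM, and of CXCL1 (-0.65 to 0.18), CXCL2 (-0.42 to 0.44) and CXCL12 (-0.0148 to 0.171) for the difference. At 25 mM against 5 mM, voom gave log2 changes of -5.76 for CXCL10, -4.97 for CXCL11, -3.12 for CXCL3, -1.51 for CXCL2 and -1.36 for CCL5, and a pseudocount of 0.1 gave -2.96 for CXCL3 and -1.27 for CCL5, while CXCL2 without replicate 3 of the 5 mM group was -0.56.

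Over all genes, the 1 call from 25 mM became 0 with no filter, 4 with median centring, 0 without trend, 7 with voom, 4 in the joint fit and 0 to 777 without single libraries. The 39 from 5 mM became 0 with no filter, 60 with median centring, 0 without trend, 130 in the joint fit and 0 to 805 without single libraries. The 3 for the difference became 0 with a pseudocount of 0.1, 1 with no filter, 1 without trend, 0 with voom and 0 to 6 without single libraries. The 4671 at 25 mM against 5 mM became 3024 to 4769 without single libraries. Depth limits CCL20 in all groups and CXCL3, CXCL10 and CXCL11 in cells kept at 25 mM.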
